A study of Mus musculus with 6 samples.

Results

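The subject is 10 genes that silence retrotransposons or act on the RNA and reverse transcription of LINE-1, the long interspersed elements that make up much of the mouse genome. Their levels were compared between Alkbh1 knockout (KO) embryonic stem (ES) cells and wild-type (WT) ES cells of the mouse. The 10 are listed by name, as members of the KAP1 and SETDB1 axis (Trim28, Setdb1), the HP1 proteins (Cbx1, Cbx3, Cbx5), the ATRX and DAXX pair (Atrx, Daxx) and LINE-1 associated factors (L1td1, Mov10, Samhd1), and each was found by its symbol among the 23951 genes of the series' 1 table. All 10 were among the 14095 genes that the authors tested.

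The KO group held 4 libraries from 2 Alkbh1 KO clones, 2 libraries per clone, and the WT group held 2 libraries of the parental TT2 line. All cells were at passage 5, on a mixed C57BL6 x CBA background, grown without feeder cells and with no treatment named. The product of Alkbh1 is an AlkB-type dioxygenase that acts on nucleic acids, and the labels do not say which part of it was removed. The authors deposited 1 value per genotype and gene, in FPKM (fragments scaled to transcript length and to the number of mapped fragments), with their own log2 fold change of KO over WT, p and q. No value per library, standard error or read count was at hand. The levels below therefore carry no SD, the sequencing depth is unknown, the 2 clones cannot be compared, and an effect of the genotype cannot be told apart from a difference between cell clones. In bulk RNA, fewer cells of a kind and less RNA per cell cannot be told apart either. A gene is called here when its deposited q, adjusted over all tested genes, is under 0.05.

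Retrotransposons are held silent in ES cells largely by chromatin. KRAB zinc finger proteins bind the element and recruit TRIM28 (also named KAP1), which brings the histone methyltransferase SETDB1, and the methylated histone H3 it leaves is bound by HP1 proteins. ATRX and DAXX deposit the histone variant H3.3 at silenced repeats, while factors such as MOV10 and SAMHD1 act later, on LINE-1 RNA and on reverse transcription. LINE-1 transcripts themselves were not analysed here.

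By the authors' test, which the file headers lay out as Cuffdiff does, 5 of the 10 factors were lower in KO cells as deposited. With equal sums of FPKM 2 of those 5 (Trim28 and Daxx) would stand higher. With the median of abundant genes, those at or above the median level, set to 0, all 5 would stay lower. In the authors' deposited table, the 5 called lower were L1td1, Cbx3, Cbx1, Trim28 and Daxx, 0 were called higher and 5 were not called, against 50.8% called among all tested genes, 28.4% called lower and 22.4% called higher. At an unadjusted deposited p under 0.05 the counts were the same, 5 lower and 0 higher. L1td1 and Cbx3 were also at least 2-fold lower, as were 5.36% of tested genes. The share of the 10 called in either direction (50%) lay near the background (50.8%) and is no result about these genes. The shares by direction, 50% lower and 0 higher, were further from it, and that difference was not tested. Of the 10, 4 lay in the highest decile of tested genes by mean level, where 76.6% of genes were called lower. The median log2 fold change of the 10 was -0.40, against -0.06 over all tested genes.

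A scaling and a level difference stand beside every fold change below. Summed over tested genes, FPKM came to 624340 in KO and 981679 in WT, so that with equal sums every log2 fold change would be 0.65 higher, and the members' median would be 0.25. The median of all tested genes, -0.06 as deposited, would then lie above 0 too, and the members' median would still lie below it. Abundant genes were also lower than scarce ones, with a median log2 fold change of -0.72 in the highest decile of tested genes by mean level and 0.69 in the lowest. For each factor the fold change is thus given as deposited and, where its direction turns, with equal sums. The knockout target itself stood at 18.1 FPKM in KO and 33.9 FPKM in WT in the authors' deposited table (log2 fold change -0.90, q = 0.0943), was not called, and shares its listed region with others, 5 entries in all.

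**Figure D1:**
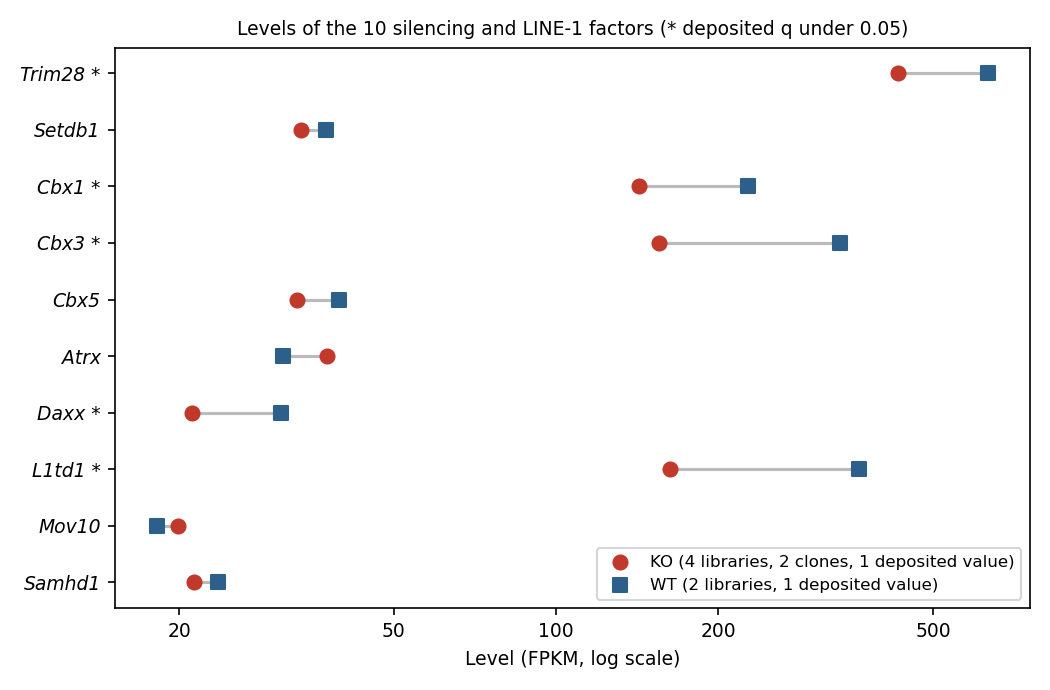
Deposited level of each factor in KO (red circles) and WT (blue squares), in FPKM on a log axis, with 1 value per genotype and no error available. Asterisks mark the 5 factors called lower at a deposited q under 0.05. Trim28, L1td1, Cbx3 and Cbx1 lie above 100 FPKM in both genotypes, and Atrx and Mov10 are the factors whose KO value lies to the right of WT. With equal sums of FPKM, every factor except L1td1, Cbx3 and Cbx1 would stand higher in KO. With abundant genes centred on 0, Trim28 and Daxx would stay lower as well.

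Trim28, the corepressor through which KRAB zinc finger proteins act, was the most abundant of the 10 in both genotypes. In the authors' deposited table it stood at 431 FPKM in KO and 633 FPKM in WT (chromosome 7, 13609500 to 13616381, mm9), a log2 fold change of -0.55 with q = 0.00218. KO cells thus held 68.1% of the WT level as deposited, yet with equal sums the log2 fold change would be 0.10. Within the highest decile by level, 66.5% of genes had a lower fold change than Trim28. Its level ranked 209th among the tested genes in KO and 234th in WT.

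Setdb1, the methyltransferase of histone H3 lysine 9 that TRIM28 brings to the element, was far less abundant and was not called. It stood at 33.7 FPKM in KO and 37.4 FPKM in WT in the authors' deposited table (chromosome 3, 95119173 to 95161124, mm9, log2 fold change -0.15, q = 0.478). With equal sums Setdb1 would stand at 0.50. The table gives the same region for Cers2, a ceramide synthase gene, so the reads of the pair are uncertain. Per length, Trim28 was 12.8 times as abundant as Setdb1 in KO and 16.9 times in WT. That difference between the genes was not tested.

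The partners of this axis were taken from a list of 29 other genes. In the authors' deposited table, 12 of them (41.4%) were lower, 2 (6.90%) higher and 15 not called, against 28.4% lower and 22.4% higher among all tested genes. In the level decile that holds the list's median level (24.2 FPKM) 44.9% of genes were lower and 7.80% higher, so these shares lie near that background. The list had a median log2 fold change of -0.31, which turned to 0.34 with equal sums. Sumo2, a SUMO protein whose conjugation to TRIM28 is needed for repression, stood at 835 FPKM in KO and 2253 FPKM in WT (log2 fold change -1.43) in the authors' deposited table. Suv39h2, another histone H3 lysine 9 methyltransferase gene, stood at 7.70 FPKM in KO and 14.9 FPKM in WT, and the zinc finger factor gene Yy1 at 34.4 FPKM in KO and 57.7 FPKM in WT. Both were called lower in the authors' deposited table. The 2 called higher were Rcor1, the CoREST scaffold gene, at 9.10 FPKM in KO and 3.12 FPKM in WT, and Wiz, a zinc finger partner of the G9a methyltransferase complex, at 10.3 FPKM in KO and 7.97 FPKM in WT. The KRAB zinc finger genes Zfp809 and Zfp57 encode products that recruit TRIM28 to a provirus and to imprinted regions. Neither was called, at log2 fold changes of 0.049 for Zfp809 and -0.14 for Zfp57 in the authors' deposited table. The other Zfp genes of the list, Zfp708 (-0.68), Zfp932 (-0.51) and Zfp42 (-0.50), were called lower there.

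The HP1 proteins, which bind methylated histone H3 and compact chromatin, are encoded by 3 paralogous genes, and 2 of them were called lower. Their promoters are shown so that the paralogs, whose fold changes differed, can be compared. Each sequence holds the 250 bases before the most upstream annotated start (RefSeq, GRCm38.p6), printed 5′ to 3′ on the gene's strand, and capitals mark matches on either strand to the CCAAT box (CCAAT), the GC box (GGGCGG), an ETS core (CCGGAA), an NRF1 half-site (TGCGCA) or a YY1 core (ATGGCG). They lie at chr11:96788885-96789134 (plus strand, Cbx1), chr6:51470366-51470615 (plus strand, Cbx3) and chr15:103239853-103240102 (minus strand, Cbx5).
Cbx1: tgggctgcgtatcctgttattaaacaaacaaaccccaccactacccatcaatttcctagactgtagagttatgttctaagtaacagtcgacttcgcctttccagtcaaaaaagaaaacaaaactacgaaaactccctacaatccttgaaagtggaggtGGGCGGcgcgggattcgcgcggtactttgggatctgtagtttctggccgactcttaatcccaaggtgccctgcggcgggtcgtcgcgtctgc
Cbx3: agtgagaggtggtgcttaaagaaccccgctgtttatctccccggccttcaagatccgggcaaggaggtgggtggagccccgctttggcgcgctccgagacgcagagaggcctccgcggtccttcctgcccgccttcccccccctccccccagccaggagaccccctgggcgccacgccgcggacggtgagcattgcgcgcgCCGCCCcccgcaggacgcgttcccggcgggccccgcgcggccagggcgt
Cbx5: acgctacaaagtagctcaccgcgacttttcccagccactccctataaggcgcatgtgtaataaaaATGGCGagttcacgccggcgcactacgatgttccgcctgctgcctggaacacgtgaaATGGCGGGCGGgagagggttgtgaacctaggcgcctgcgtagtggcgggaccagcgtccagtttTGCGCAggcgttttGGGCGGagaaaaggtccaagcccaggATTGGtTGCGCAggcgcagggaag

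The windows of Cbx1 and Cbx3 each held 1 GC box and none of the other 4 motifs. That of Cbx5 held 2 GC boxes, 1 CCAAT box, 2 NRF1 half-sites and 2 YY1 cores, and 1 of its GC boxes overlaps a YY1 core. Among all 32851 windows in the RefSeq table a GC box was in 32.7%, a CCAAT box in 33.8%, an ETS core in 12.0%, an NRF1 half-site in 6.43% and a YY1 core in 5.73%. Among the 13243 windows of tested genes, the shares were 56.4% for the GC box, 35.2% for the CCAAT box, 20.7% for the ETS core, 11.0% for the NRF1 half-site and 8.51% for the YY1 core. Cbx3 had the window richest in G and C of the 10 factors, at 73.2%, with 49.6% in Cbx1 and 59.2% in Cbx5. These matches describe letters and not bound sites, and no binding was measured.

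Cbx3, which encodes HP1 gamma, was the paralog that differed most. It stood at 155 FPKM in KO and 337 FPKM in WT in the authors' deposited table (chromosome 6, 51420614 to 51433703, mm9), a log2 fold change of -1.12 with q = 0.000206. Cbx3 remained lower with equal sums (-0.47), and 12.3% of genes in the highest decile by level lay below it. RefSeq names 6 pseudogenes of Cbx3, so reads of near-identical copies may be misassigned in either genotype.

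Cbx1, which encodes HP1 beta, was called lower as deposited, with a fold change close to that of other abundant genes. In the authors' deposited table it stood at 142 FPKM in KO and 227 FPKM in WT (chromosome 11, 96650449 to 96669954, mm9, log2 fold change -0.67, q = 0.000206). With equal sums the value would be -0.02, and it lay 0.046 above the median of its decile by level. The table gives the same region for Gm11517, an overlapping gene at 4.55 FPKM in KO and 6.62 FPKM in WT.

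Cbx5, which encodes HP1 alpha, was the scarcest of the HP1 genes and was not called. It stood at 33.0 FPKM in KO and 39.5 FPKM in WT in the authors' deposited table (chromosome 15, 103021976 to 103070247, mm9, log2 fold change -0.26, q = 0.143). With equal sums Cbx5 would stand at 0.39. The make-up of the HP1 transcripts, per length, was 46.9% Cbx3, 43.1% Cbx1 and 9.99% Cbx5 in KO, and 55.8% Cbx3, 37.6% Cbx1 and 6.55% Cbx5 in WT. Cbx3 exceeded Cbx5 by 4.70 times in KO and 8.53 times in WT, a ratio that any single rescaling leaves as it is. A correction by level or length would not leave it so. Against the median of its decile by length Cbx3 lay at -0.99 and Cbx5 at -0.69, and by level at -0.40 and 0.25. The difference between the paralogs was not tested. The summed HP1 level was 330 FPKM in KO and 603 FPKM in WT, or 54.8% of WT, against 63.6% for the sum of FPKM over tested genes.

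The nearest listed genes to Cbx3 and Cbx5 encode RNA-binding proteins. Hnrnpa2b1, 721 bases from the Cbx3 region in the authors' deposited table, stood at 460 FPKM in KO and 777 FPKM in WT and was called lower (log2 fold change -0.76, q = 0.000206). Hnrnpa1, 580 bases from Cbx5, stood at 227 FPKM in KO and 334 FPKM in WT in the authors' deposited table and was not called (-0.56, q = 0.0779), and it shares its region with Gm10052, so its reads are uncertain.

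The 15 other genes listed as HP1 partners were mostly not called. In the authors' deposited table, 4 were lower (Suv420h1, Lrif1, Mis12 and Sgol1), 2 higher (Suv420h2 and Nipbl) and 9 not called. Thus 26.7% were lower and 13.3% higher, against 28.4% and 22.4% of all tested genes. In the level decile of the list's median level (27.5 FPKM) 44.9% of genes were lower and 7.80% higher, and the difference was not tested. The list's median log2 fold change of -0.26 turned to 0.39 with equal sums. The paralogs that methylate histone H4 lysine 20 differed in opposite directions as deposited: Suv420h1 stood at 12.5 FPKM in KO and 19.4 FPKM in WT (log2 fold change -0.64), and Suv420h2 at 20.8 FPKM in KO and 13.1 FPKM in WT (0.66). With equal sums Suv420h1 would lie near 0.

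Atrx and Daxx, whose products form 1 complex, stood on opposite sides of 0 as deposited. Atrx, an ATP-dependent remodeller, stood at 37.6 FPKM in KO and 31.1 FPKM in WT in the authors' deposited table (X chromosome, 102992955 to 103124711, mm9, log2 fold change 0.27, q = 0.128) and was not called. It was the factor with the highest fold change, and 88.9% of genes of its decile by level lay below it. Daxx, the histone H3.3 chaperone of the pair, stood at 21.1 FPKM in KO and 30.9 FPKM in WT (chromosome 17, 34046389 to 34052535, mm9, log2 fold change -0.55, q = 0.00177) and was called lower in the authors' deposited table. With equal sums Daxx would stand at 0.10. The ratio of Atrx to Daxx, per length, was 1.78 in KO and 1.01 in WT, and this difference of 0.82 on the log2 scale was not tested.

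Among 14 other tested genes of H3.3 deposition, 7 were called lower, 2 higher (Cabin1 and Pml) and 5 not called in the authors' deposited table, with a median of -0.31 that turned to 0.34 with equal sums. Thus 50% were lower and 14.3% higher, against 28.4% and 22.4% of all tested genes. The list's median level was 46.6 FPKM, in a level decile where 59.5% of genes were lower and 3.69% higher, and the difference was not tested. Asf1a, a histone H3 and H4 chaperone gene, stood at 17.3 FPKM in KO and 42.2 FPKM in WT (log2 fold change -1.29) in the authors' deposited table. H3f3a, 1 of the pair of genes that encode H3.3, stood at 340 FPKM in KO and 823 FPKM in WT (-1.28), and Dek, an H3.3 chaperone gene, at 119 FPKM in KO and 207 FPKM in WT (-0.80). Reads of near-identical copies of H3f3a could not be checked. Cabin1, a subunit of the HIRA complex that deposits H3.3 at active genes, stood at 9.20 FPKM in KO and 5.38 FPKM in WT (0.77), and Pml, the scaffold gene of the nuclear bodies that hold DAXX, at 27.7 FPKM in KO and 21.6 FPKM in WT (0.35).

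L1td1, which encodes an RNA-binding protein descended from the first open reading frame of a LINE-1 element and is abundant in ES cells, had the lowest fold change of the 10. It stood at 163 FPKM in KO and 365 FPKM in WT in the authors' deposited table (chromosome 4, 98393444 to 98405177, mm9), a log2 fold change of -1.16 with q = 0.000206. KO cells held 44.7% of the WT level, L1td1 remained lower with equal sums (-0.51), and 10.3% of genes in its decile by level lay below it. Its promoter window, shown as that of the factor with the lowest fold change, lies at chr4:98726504-98726753 (plus strand, GRCm38.p6, RefSeq) and held none of the 5 motifs, so it has no capitals.
L1td1: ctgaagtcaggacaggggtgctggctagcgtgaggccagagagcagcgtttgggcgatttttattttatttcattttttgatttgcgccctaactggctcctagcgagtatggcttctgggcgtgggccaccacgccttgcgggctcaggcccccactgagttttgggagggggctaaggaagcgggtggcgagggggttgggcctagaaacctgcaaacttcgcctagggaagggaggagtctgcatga

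Mov10, an RNA helicase that restricts LINE-1 in cultured cells, was not called and was the least abundant of the 10 in both genotypes. It stood at 19.9 FPKM in KO and 18.2 FPKM in WT in the authors' deposited table (chromosome 3, 104597749 to 104621481, mm9, log2 fold change 0.13, q = 0.524). Samhd1, a nucleotide triphosphohydrolase that limits reverse transcription, stood at 21.3 FPKM in KO and 23.6 FPKM in WT in the authors' deposited table (chromosome 2, 156923264 to 156960958, mm9, -0.15, q = 0.450) and was not called either, and with equal sums it would stand at 0.51. The table lists no error and none was derived from its test statistic, and the absence of a call does not show that the levels were alike.

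Other genes of LINE-1 RNA handling, reverse transcription and restriction, 37 of which were tested, were called lower in 18 cases and higher in 4, with 15 not called, in the authors' deposited table. The 48.6% lower and 10.8% higher compare with 28.4% and 22.4% of all tested genes. In the level decile of the list's median level (22.3 FPKM) 44.9% of genes were lower and 7.80% higher. Their median log2 fold change of -0.35 turned to 0.30 with equal sums. The lowest were Lin28a, an RNA-binding pluripotency gene, at 63.3 FPKM in KO and 152 FPKM in WT (-1.26), Ncl, the nucleolin gene, at 496 FPKM in KO and 1118 FPKM in WT (-1.17), and the cochaperone gene Ptges3 at 299 FPKM in KO and 625 FPKM in WT (-1.06). Higher in the authors' deposited table were Zc3hav1, a zinc finger antiviral protein gene, at 15.1 FPKM in KO and 6.90 FPKM in WT (1.13), the Argonaute gene Ago2 at 4.64 FPKM in KO and 2.48 FPKM in WT (0.90), the exonuclease gene Xrn1 at 6.01 FPKM in KO and 3.25 FPKM in WT (0.89), and Tex19.2 (0.63).

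**Figure D2:**
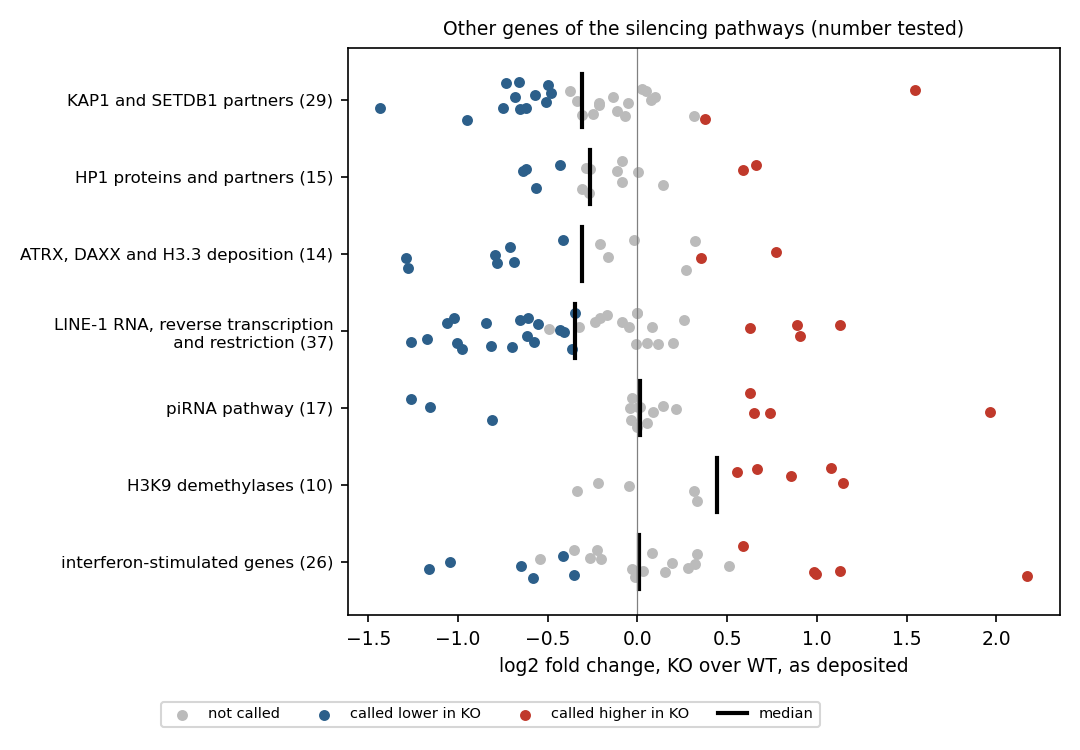
Deposited log2 fold change of KO over WT for the other tested genes of 7 pathway lists, with the number tested beside each name. Blue points were called lower and red points higher in KO at q under 0.05, grey points were not called, and black bars mark medians. The medians of the first 4 lists lie between -0.35 and -0.26 and would lie above 0 with equal sums, and that of the histone H3 lysine 9 demethylases lies at 0.44.

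Further lists cover neighbouring pathways. The histone H3 lysine 9 demethylases act on the residue that SETDB1 methylates, and the list did not separate them by the methylation state they remove. Of 10 tested genes, 5 were called higher (Kdm4b, Phf2, Kdm7a, Kdm3b and Phf8) and 0 lower in the authors' deposited table. At an unadjusted deposited p under 0.05, 1 was lower. Kdm4b stood at 5.37 FPKM in KO and 2.42 FPKM in WT, and the list's median was 0.44, or 1.10 with equal sums. The 50% called lie near the 50.8% of all tested genes, of which 22.4% were higher and 28.4% lower, but in the list every call was higher. In the level decile of the list's median level (15.6 FPKM) 12.4% of genes were higher and 31.3% lower, and the difference was not tested. The list's transcripts were long, with a median of 5173.5 nt, in a length decile whose median log2 fold change was 0.20, and the part of length was not tested. The piRNA pathway silences transposons in germ cells. Of its 17 tested genes, 4 (23.5%) were higher and 3 (17.6%) lower in the authors' deposited table, with a median of 0.016, or 0.67 with equal sums. Those called were Tdrd7, Asz1, Mybl1 and Piwil1 on the higher side and Tdrd12, Morc1 and Piwil4 on the lower. In the level decile of the list's median level (4.89 FPKM) 25.8% of genes were higher and 14.1% lower, so these shares lie near that background. Morc1, needed for transposon silencing in the male germ line, stood at 37.3 FPKM in KO and 83.1 FPKM in WT (log2 fold change -1.16), and Tdrd7 at 2.41 FPKM in KO and 0.616 FPKM in WT (1.97) in the authors' deposited table.

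Interferon-stimulated genes, a response to which Samhd1 and Mov10 belong, were called in both directions as deposited. Of 26 tested, 5 were higher and 6 lower in the authors' deposited table, with a median of 0.0089 that would be 0.66 with equal sums. Isg15 and Ifitm3 alone would then lie below 0. The 42.3% of the list called in either direction compare with 50.8% of all tested genes, of which 22.4% were higher and 28.4% lower. Genes in the level decile of the list's median level (7.21 FPKM) were higher in 25.8% and lower in 14.1% of cases. No difference from these shares was tested, so the calls in both directions are no result about this response. The peptide transporter gene Tap1 stood at 2.07 FPKM in KO and 0.458 FPKM in WT and Stat2 at 10.6 FPKM in KO and 5.37 FPKM in WT. Isg15, at 0.950 FPKM in KO and 2.12 FPKM in WT, and Ifitm3, at 114 FPKM in KO and 235 FPKM in WT, were called lower, as was the regulator gene Irf1.

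The factors called lower were mostly the abundant ones. Of the 10, 4 (Trim28, L1td1, Cbx3 and Cbx1) lay in the highest decile of tested genes by mean level, where 76.6% of genes were called lower, and each of these 4 was called lower. Of the other 6, 1 (Daxx) was called lower, in deciles where 31.3% to 59.5% of genes were. Against the median of their own decile, 3 factors lay below (L1td1 by 0.44, Cbx3 by 0.40 and Daxx by 0.21) and 7 above, led by Atrx at 0.62 above.

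**Figure D3:**
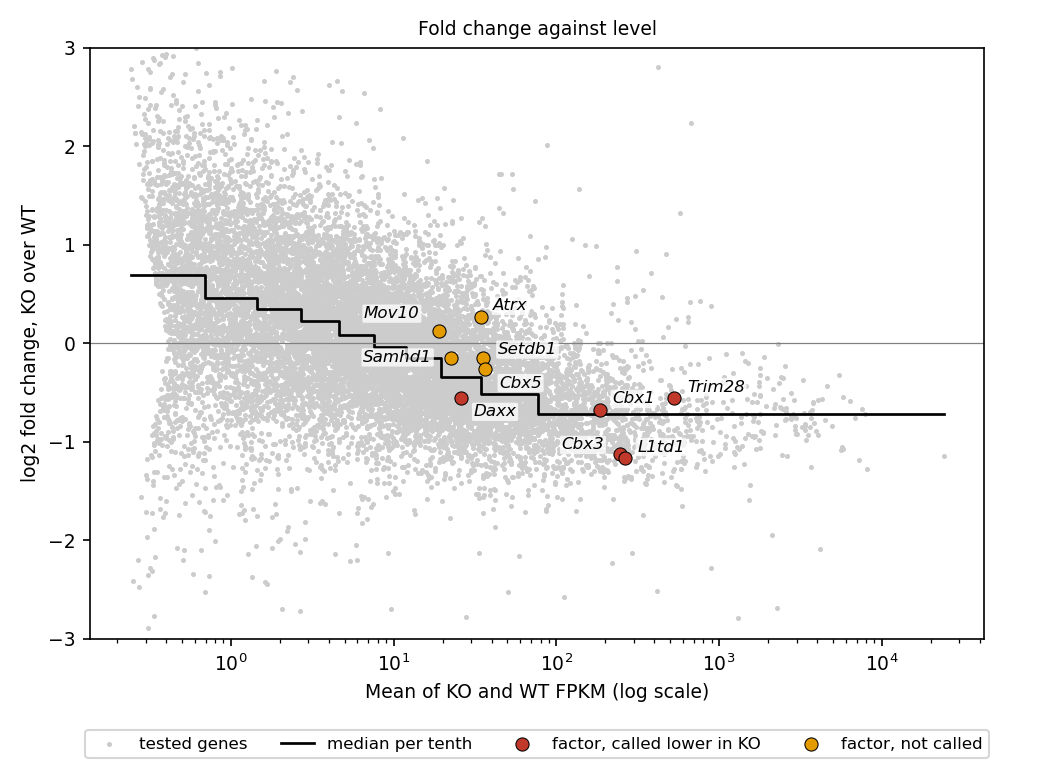
Deposited log2 fold change of KO over WT against the mean of the KO and WT level in FPKM (log axis), with tested genes in grey and the median of each decile by level as a black line; 34 genes beyond 3 in either direction are not drawn. L1td1 and Cbx3 lie below the line at the abundant end, as does Daxx at a lower level, and the other 7 factors lie above it.

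Among the 10, transcript length differed with the calls as well. The 5 factors called lower had longest annotated transcripts of 2377 to 3245 nt, and the 5 not called had 3718 to 10275 nt. The share of all tested genes called lower in those ranges was not computed, so this split is no result about the 10. Of the 5 called lower, 4 also lay in the highest decile by level. Over all tested genes the median log2 fold change was -0.46 in the shortest decile by length and 0.44 in the longest. The longest transcripts of the 10 belonged to Atrx (10275 nt) and Cbx5 (8803 nt), and that of Cbx1 was the shortest (2377 nt). Against the median of their own decile by length, 9 of the 10 lay below, with Mov10 at 0.17 above and Atrx, above 0 as deposited, at 0.16 below. The part of transcript length in these differences was not tested.

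**Figure D4:**
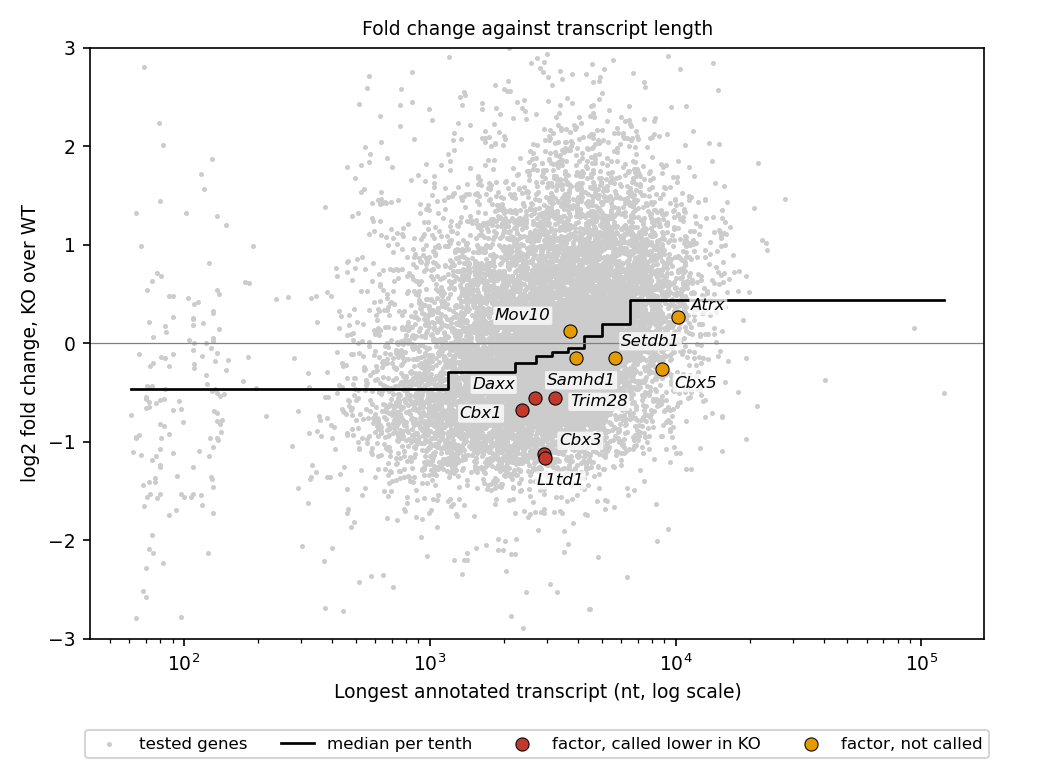
Deposited log2 fold change of KO over WT against the longest annotated transcript in nucleotides (log axis), with tested genes in grey and the median of each decile by length as a black line. The 5 factors called lower (red) lie left of the 5 not called (orange), and Mov10 alone lies above the line.

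Markers of the labelled cell type were present and those of other types were scarce. The 7 ES cell markers summed to 4047 FPKM in KO and 6752 FPKM in WT, led by Dppa5a at 2099 FPKM in KO and 3753 FPKM in WT and by Pou5f1. Of these 7, 5 (71.4%) were called lower and 0 higher in the authors' deposited table, with a median log2 fold change of -0.58. Esrrb (0.17) and Klf4 (-0.015) were not called. In the level decile of the list's median level (384 FPKM) 76.6% of genes were called lower, with a median of -0.72, so the markers lie near that background. Most ES markers were thus lower as deposited together with L1td1, Cbx3, Cbx1, Trim28 and Daxx, and their part in those values was not tested. Fibroblast markers summed to 11.0 FPKM in KO and 7.13 FPKM in WT, mostly Thy1 at 9.39 FPKM in KO and 6.43 FPKM in WT. Of the 8, 3 were tested, and each was called higher. Their median level (0.606 FPKM) lies in the lowest decile by level, where 41.3% of genes were called higher and 5.46% lower. Extraembryonic endoderm markers summed to 2.40 FPKM in KO and 3.42 FPKM in WT, with 1 of 3 tested genes higher and 2 lower (Dab2 and Sox7). The trophoblast list reached 43.2 FPKM in KO and 49.0 FPKM in WT, of which Tfap2c, a gene that ES cells also express, made up 40.1 FPKM in KO and 45.7 FPKM in WT. Krt7 was next, and 1 of 4 tested genes was higher and 1 lower. The 2-cell-like markers, genes of a rare state in which the retrotransposon MERVL is active, summed to 3.61 FPKM in KO and 3.76 FPKM in WT, led by Zscan4c and Zscan4f, whose reads are uncertain because the Zscan4 copies are near-identical, with 1 of 4 tested genes higher and 1 lower and 3 of 8 listed at 0 in both genotypes. The tested endoderm, trophoblast and 2-cell-like markers had median levels of 0.737, 1.36 and 0.832 FPKM. These lie in the second lowest decile by level, where 40.1% of genes were called higher and 7.87% lower. Over all tested genes the shares were 22.4% and 28.4%, and no difference from them was tested. The part of other cell types in the values of the 10 factors was not tested.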

How the data were processed

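Total RNA of 4 KO and 2 WT libraries was made into strand-specific messenger RNA libraries, per the labels' protocols. Reads were aligned with TopHat2 to mm9, per the submitters' processing notes, while the sources used here do not give the annotation or the counting settings. The deposited table has the layout of a Cuffdiff comparison, per the file headers. It gives FPKM per genotype, computed by the authors over their replicates with a scaling that is not stated, a log2 fold change of KO over WT, a test statistic (a score, not used here), a p-value and a q-value, all the authors' own. Depth per library is unknown, and the labels do not say whether replicates were separate cultures, so the deposited q-value may measure technical spread only.

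No gene test was run anew, since the table holds no value per library. Counts at q under 0.05, medians, deciles by mean FPKM and by longest GENCODE M21 transcript (found for 99.3% of tested genes) were computed with Python 3.11.15, NumPy 2.4.6 and pandas 2.3.3. The Benjamini-Hochberg code was tested on simulated data and matched the deposited q-value to within 5.18e-07. Among called genes, 3418 (3 of them members) tied at the lowest deposited p-value, 5e-05, and cannot be ranked by it.

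The members and lists were chosen with earlier results of these data known, and lists exclude the members. Named list genes are up to 3 called per direction with the largest fold change at a mean of at least 1 FPKM, all calls where a list has 5 or fewer, and the 2 most abundant markers. Sgol1, Tex19.2, Piwil1, Zfp809, Zfp57, Zfp708, Zfp932, Zfp42, Esrrb, Klf4 and the promoter neighbours were named beyond this rule, after their values were seen. Alternatives changed the q threshold, the filter on low values, the adjustment, the pseudocount (0.1 or 1), the average and the scaling. Promoter windows were read from RefSeq (GRCm38.p6), and no mm9 coordinate was converted.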

Additional observations from a re-analysis of the deposited data

How the results depend on the processing

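No paired analysis was possible because the table holds 1 value per genotype, and leaving out each replicate in turn could not be run for the same reason. Of 135 recomputed values, 24 changed sign and 16 others, all counts or medians, moved beyond the set margin. The other 95 include single-gene fold changes that kept their sign but not their size, such as Cbx1 at -0.02 with equal sums. The 5 members called lower were 5 at q under 0.01 or 0.1, with the adjustment recomputed and without genes of low level, and 2 when a 2-fold difference was also asked. With equal sums of FPKM, the 5 called members split into 2 higher and 3 lower, while centring abundant genes (those at or above the median level) on 0 left 5 lower. At q under 0.01 the KAP1 and the H3.3 lists each had 1 gene higher, and at q under 0.1 the demethylases had 1 lower.

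Scaling set the sign of most medians, that of all tested genes (-0.06 as deposited) among them. With equal sums the median of the members was 0.25, and those of the KAP1, HP1, H3.3, LINE-1, piRNA, demethylase and interferon lists were 0.34, 0.39, 0.34, 0.30, 0.67, 1.10 and 0.66. With abundant genes centred on 0 the members' median was -0.037, and the lists in that order stood at 0.057, 0.10, 0.056, 0.018, 0.38, 0.81 and 0.38. After subtracting the median of the same decile by level the members' median was 0.18. After subtracting that by transcript length, an alternative added once the data were seen, the piRNA, demethylase and interferon medians were 0.14, 0.31 and 0.11.

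Of single members, Trim28 (0.10), Setdb1 (0.50), Cbx5 (0.39), Daxx (0.10) and Samhd1 (0.51) turned positive with equal sums. Setdb1 (0.22), Cbx5 (0.11) and Samhd1 (0.22) did so with abundant genes centred on 0, and Trim28 (0.17), Setdb1 (0.36), Cbx1 (0.046), Cbx5 (0.25) and Samhd1 (0.20) against their decile by level. Atrx turned to -0.16 against its decile by length. L1td1 and Cbx3 stayed below 0 under each alternative run. The lack of values per library limits every statement here.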
